A study of Homo sapiens with 3 samples.

Results

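The 6 genes described here encode 5 sugar transporters and the first enzyme of fructose breakdown: SLC2A1, SLC2A2, SLC2A3, SLC2A5, SLC5A1 and KHK. They were found by their symbols among the 33538 genes of the deposited tables, and all 6 were present in each library. The tables hold single-cell RNA counts from a co-culture of Caco-2 and HT29, lines derived from human colorectal carcinomas. Caco-2 cells of passage 8 and HT29 cells of passage 13 were seeded together at a ratio of 9:1 in the apical chamber of Transwells, which are inserts with a porous membrane. 2 Transwells were left untreated (control 1 and control 2), and 1 received 1 ng/ml lipopolysaccharide (LPS) of E. coli O111:B4 on the apical side on day 22 for 24 h. All were harvested on day 23. The model holds tumour-derived epithelial cells only, and the single LPS Transwell has no replicate of its own.

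Sugar crosses the intestinal epithelium in steps that use different carriers. SLC5A1 encodes SGLT1, which draws glucose and galactose through the brush border with sodium, and SLC2A5 encodes GLUT5, the brush border fructose carrier. SLC2A2 encodes GLUT2, a low-affinity carrier best known for letting sugar out across the basolateral membrane. SLC2A1 and SLC2A3 encode GLUT1 and GLUT3, high-affinity glucose carriers that many tumour cells use for their own supply. KHK, ketohexokinase, phosphorylates fructose, and TKFC phosphorylates the glyceraldehyde that is released further along the pathway.

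On GRCh38 with GENCODE release 44, SLC2A1 lies on the minus strand of chromosome 1 (chr1:42925353-42958893) and SLC2A5 on the same strand of that chromosome (chr1:9035106-9088478). SLC2A2 is on the minus strand of chromosome 3 (chr3:170996347-171026743) and SLC2A3 on the minus strand of chromosome 12 (chr12:7919230-8019007). SLC5A1 is on the plus strand of chromosome 22 (chr22:32043261-32113029). KHK is on the plus strand of chromosome 2 (chr2:27086772-27100762), where it overlaps CGREF1 on the opposite strand. Whether reads were counted by strand is not given in the sources used here, so KHK counts could include reads of CGREF1. SLC2A3 has a near-identical paralog, SLC2A14, on the same strand of chromosome 12 (chr12:7812512-7891148), and the division of reads between both genes is uncertain.

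After filters on depth, mitochondrial share and doublets, 14472 cells were kept (4633 in control 1, 4989 in control 2 and 4850 in the LPS library). The median number of unique molecular identifiers (UMIs, each marking 1 captured RNA molecule) per cell was 5459 in control 1, 4103 in control 2 and 3573.5 in the LPS library, so the LPS cells were the shallowest. Between 9 and 11 barcodes were shared by each pair of libraries. Levels are given below as counts per 1000000 UMIs (CPM) of the cells named, and they are compared between cells and libraries, not between genes. Each cell was assigned to a line by 18 HT29 genes and 17 Caco-2 genes, none of them among the 6 genes or the lists below. There were 11919 Caco-2-line cells and 2243 HT29-line cells, and 310 cells near the boundary were left out of comparisons between lines. The 6 markers of non-epithelial cells were seen with unequal numbers of UMIs. PTPRC, which marks blood cells, had between 0 and 3 UMIs per library and COL3A1 between 3 and 5. PECAM1 had between 34 and 53, CD3E between 50 and 79, COL1A1 between 210 and 240 and CD68 between 465 and 684. The summed level of the 6 markers was 36.8 to 39.6 CPM in Caco-2-line cells and 25.3 to 30.8 CPM in HT29-line cells.

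Over all kept cells the 6 genes were seen with very unequal numbers of UMIs. SLC2A2 rested on 135 UMIs and SLC5A1 on 213 UMIs in the 3 libraries together, KHK on 876 and SLC2A5 on 4208. A UMI of SLC2A3 was found in 56.7% of kept cells and one of SLC2A1 in 54.8%, against 14.5% for SLC2A5, 5.46% for KHK, 1.42% for SLC5A1 and 0.760% for SLC2A2. The genes also sat in different cells. Enterocyte-like cells made up 14.2% of kept cells but held 69.1% of the SLC2A5 UMIs, 63.0% of the SLC2A2 UMIs and 35.7% of the KHK UMIs. HT29-line cells made up 15.5% of kept cells and held 58.7% of the SLC5A1 UMIs and 44.9% of the SLC2A1 UMIs, but 0.721% of those of SLC2A3.

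The promoters are shown for the 4 genes with an entry in the RefSeq promoter table (GRCh38.p14), to set the sequence before the start beside genes that moved together between cell classes, as described below. Each run gives the 250 bases before the start annotated by RefSeq, 5′ to 3′ on the gene's own strand, with letters of searched motifs in capitals. SLC2A5 is read from the minus strand of chr1:9069636-9069885, SLC2A2 from the minus strand of chr3:171026721-171026970, SLC5A1 from the plus strand of chr22:32043011-32043260 and SLC2A1 from the minus strand of chr1:42958869-42959118.
SLC2A5: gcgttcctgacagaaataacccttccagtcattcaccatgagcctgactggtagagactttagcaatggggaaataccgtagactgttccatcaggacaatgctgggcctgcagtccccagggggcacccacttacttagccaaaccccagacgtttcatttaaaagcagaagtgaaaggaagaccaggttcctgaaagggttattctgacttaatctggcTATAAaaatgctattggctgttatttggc
SLC2A2: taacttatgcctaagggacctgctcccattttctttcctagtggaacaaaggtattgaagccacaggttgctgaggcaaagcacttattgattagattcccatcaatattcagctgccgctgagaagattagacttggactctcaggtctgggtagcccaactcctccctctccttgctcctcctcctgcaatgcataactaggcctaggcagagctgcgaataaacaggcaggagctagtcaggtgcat
SLC5A1: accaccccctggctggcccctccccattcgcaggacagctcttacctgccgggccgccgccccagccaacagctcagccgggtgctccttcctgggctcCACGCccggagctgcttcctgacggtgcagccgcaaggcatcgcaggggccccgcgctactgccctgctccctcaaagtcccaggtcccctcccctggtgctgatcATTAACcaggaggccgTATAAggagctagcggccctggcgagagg
SLC2A1: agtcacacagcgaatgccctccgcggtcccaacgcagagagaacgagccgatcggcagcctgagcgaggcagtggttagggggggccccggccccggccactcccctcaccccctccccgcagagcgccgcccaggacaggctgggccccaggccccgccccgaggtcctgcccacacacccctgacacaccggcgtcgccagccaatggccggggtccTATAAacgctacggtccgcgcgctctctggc

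The TATA box letters TATAA occurred in SLC2A5 and SLC5A1, starting 29 bases before the start site, and in SLC2A1, starting 31 bases before it, and they occurred on either strand in 18.9% of the 35116 promoters of the table. SLC5A1 also held, on its other strand and therefore printed as the reverse complement, the HNF1 half-site letters GTTAAT (45 bases before the start, in 6.23% of promoters) and the hypoxia response element letters GCGTG (151 bases before the start, in 32.2%). The second hypoxia spelling ACGTG (in 18.5% of promoters) and the GATA letters GATAA (in 20.4%) were found in none of the 4 windows, and SLC2A2 held none of the 5 motifs. The share of G and C was 72.4% in SLC2A1 and 68.8% in SLC5A1, against 48.8% in SLC2A2 and 46.8% in SLC2A5. The RefSeq starts differ from the outer ends of the GENCODE genes given above for 3 of the 4: the window of SLC2A5 lies wholly inside the GENCODE gene and those of SLC2A1 and SLC2A2 overlap its end. A match of letters does not show that a factor binds there.

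The first comparison asked in which line each gene was higher, within each Transwell. The levels of SLC2A1 and SLC5A1 were higher in HT29-line cells, and those of SLC2A3, SLC2A5, SLC2A2 and KHK in Caco-2-line cells. SLC2A1 was counted in both lines, with 12821 UMIs in HT29-line cells and 14545 in Caco-2-line cells. UMIs were summed per line in each library and tested with edgeR's quasi-likelihood test with library as a block, and p-values were adjusted by the Benjamini-Hochberg method over all genes tested. All 6 genes passed the adjusted threshold of 0.05, 2 of them higher in HT29-line cells and 4 lower. Of the lower genes, SLC2A2, SLC2A5 and KHK had entered the test through Caco-2-line cells alone. For these 3 genes no other direction was possible, so their passing is no support for it. The lines differed in most of what they express: of 14005 genes tested, 73.2% passed, 34.5% higher and 38.7% lower in HT29-line cells, so passing is not particular to sugar transport. The sizes are described one gene at a time below.

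SLC2A1, the GLUT1 gene, was at 1151 CPM in control 1, 1429 CPM in control 2 and 1161 CPM in the LPS library in HT29-line cells. In Caco-2-line cells it was at 208, 229 and 270 CPM in the same order. Every HT29-line value lay above every Caco-2-line value, and the difference was 4.99-fold (log2 fold change 2.32, SE 0.08, adjusted p = 1.9e-26). A UMI of SLC2A1 was found in 95.6%, 94.3% and 90.2% of HT29-line cells and in 49.4%, 45.1% and 46.1% of Caco-2-line cells.

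SLC5A1, the SGLT1 gene, was at 10.5, 12.7 and 13.6 CPM in HT29-line cells (37, 47 and 41 UMIs in control 1, control 2 and LPS). In Caco-2-line cells it was at 1.08, 1.30 and 1.13 CPM (28, 26 and 19 UMIs). The groups did not overlap and the difference was 9.75-fold (log2 fold change 3.29, SE 0.25, adjusted p = 2.0e-15), although UMIs of this gene were few in both lines.

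SLC2A3, the GLUT3 gene, showed the opposite pattern to SLC2A1. It was at 547, 633 and 802 CPM in Caco-2-line cells and at 25.6, 21.9 and 41.9 CPM in HT29-line cells of control 1, control 2 and LPS. It was 23.9-fold lower in HT29-line cells (log2 fold change -4.58, SE 0.11, adjusted p = 4.3e-33). Its HT29-line level was 4.69%, 3.46% and 5.23% of the Caco-2-line level. In each library this was above the shares of APOA4, APOC3 and AFP given below. It was below that of FABP2 in control 1 and control 2, where FABP2 had 4 and 2 UMIs in HT29-line cells. The part of free RNA in the SLC2A3 level was not tested. Its paralog SLC2A14 lay on the same side, at 22.6 to 34.0 CPM in Caco-2-line cells and 0 to 1.33 CPM in HT29-line cells.

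SLC2A5, the GLUT5 gene, was at 53.7, 65.5 and 86.1 CPM in Caco-2-line cells. In HT29-line cells 2 UMIs were counted in control 1, 3 in control 2 and 7 in the LPS library. The HT29-line level was 1.06%, 1.24% and 2.70% of the Caco-2-line level. Free RNA in droplets can give such low shares, and 2 abundant apolipoprotein genes of Caco-2-line cells served as a gauge. The same share was 0.966%, 1.23% and 1.21% for APOA4 and 1.56%, 1.41% and 3.41% for APOC3. The SLC2A5 share lay between those of APOA4 and APOC3 in all 3 libraries, and the part of free RNA in it was not tested. The fetal plasma protein gene AFP gave 3.55%, 1.07% and 1.93%, and CUBN and FABP2, with 1 to 4 UMIs each in HT29-line cells, gave 1.12% to 8.07%. The fitted difference was 60.4-fold (log2 fold change -5.92, SE 0.22, adjusted p = 4.7e-26). The ratio of the levels ran from 37.0 in the LPS library to 94.2 in control 1, and DESeq2 gave an SE of 0.47. SLC2A5 had entered the test through Caco-2-line cells alone, so no other direction was possible.

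SLC2A2, the GLUT2 gene, had no UMI in HT29-line cells of any library. It had 59, 29 and 43 UMIs in Caco-2-line cells, or 2.28, 1.45 and 2.55 CPM. Set against the limit of 3 counts per library, the Caco-2-line level was at least 2.67-fold, 1.78-fold and 2.56-fold higher in control 1, control 2 and LPS. The cells near the boundary, left out here, held 4 UMIs of SLC2A2, all in the LPS library (6.92 CPM).

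KHK was at 15.3, 13.2 and 11.2 CPM in Caco-2-line cells and had 7, 4 and 2 UMIs in HT29-line cells (1.99, 1.08 and 0.665 CPM), or 13.0%, 8.18% and 5.96% of the Caco-2-line level. It was 11.1-fold lower in HT29-line cells (log2 fold change -3.47, SE 0.29, adjusted p = 3.3e-14). SLC2A2, SLC2A5 and KHK reached the level asked by the count filter in all 3 sums of Caco-2-line cells alone, so for these 3 genes the direction of a call was given in advance. When the cells near the boundary were put back, the difference was -2.54 for SLC2A2, -4.05 for SLC2A3 and -4.69 for SLC2A5 on the log2 scale. For SLC2A2 the fit without those cells gave -7.66, with no UMI on the HT29-line side.

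**Figure D1:**
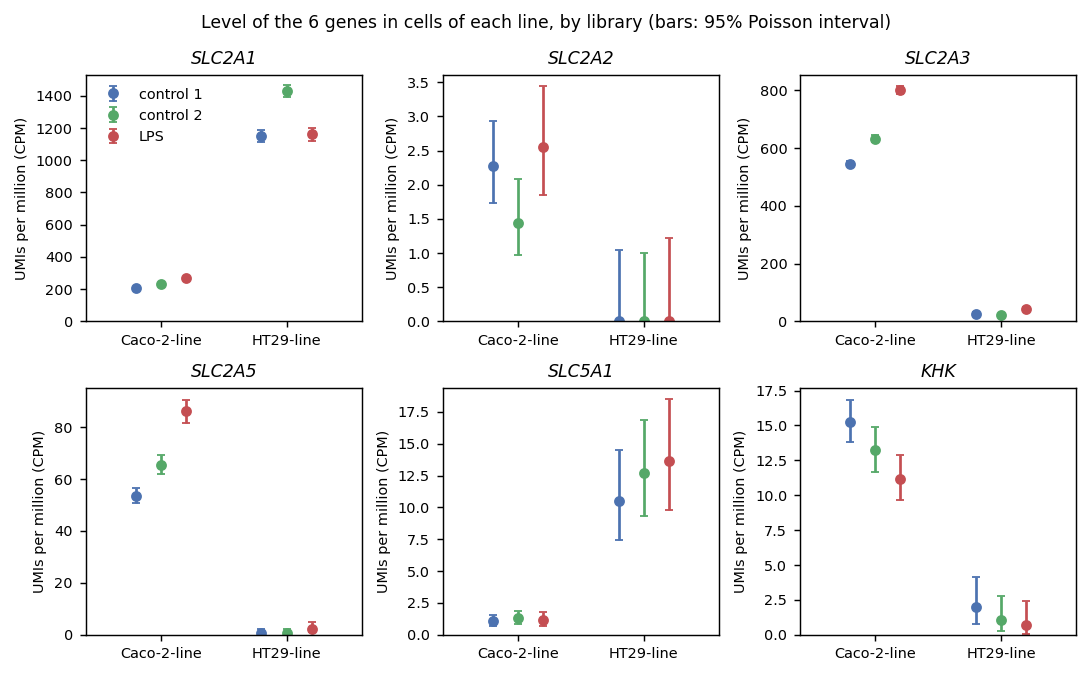
Level of each of the 6 genes in Caco-2-line and HT29-line cells, in CPM on linear axes from 0, with 1 panel per gene, its own scale and 1 point per library. Bars are exact Poisson 95% intervals, which cover counting error only. SLC2A1 and SLC5A1 stand higher in HT29-line cells of all 3 libraries and the other 4 genes lower, with SLC2A2 at 0 there.

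The other genes of sugar handling were counted by list. Over all genes tested, 34.5% were higher and 38.7% lower in HT29-line cells. Of 20 genes of glycolysis and lactate export, 15 were higher in HT29-line cells, 3 were lower and 2 did not pass, with a median log2 fold change of 1.04 against -0.07 over all genes tested. The lactate exporter SLC16A3 had the largest difference (3.59), followed by ENO2 and the hexokinase HK1 (2.21 each). Of 10 genes of the hypoxia response, 8 were higher and 1 lower, with a median of 1.72, among them NDUFA4L2 (5.17) and the carbonic anhydrase CA9 (4.67), whereas BNIP3 was lower (-5.25). Of 6 genes of fructose breakdown and the polyol steps, 5 were lower and 1 higher, with a median of -1.90. The aldose reductase AKR1B1 was lower (-3.60), and the related AKR1B10 was higher (5.32). Of the genes of this list, 3 had entered the test through 1 line alone, both of these among them.

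Of 13 other sugar transporters tested, 4 were higher in HT29-line cells, 7 lower and 2 did not pass, with a median of -1.34. The shares over all genes are again 34.5% higher and 38.7% lower, also for the lists that follow. SLC2A14 (-5.33) and SLC2A9, a urate carrier of the same family (-4.66), were lower, and SLC2A12 was higher (4.71). Of the transporters that passed, 5 had entered through 1 line alone, these 3 among them. All 5 brush border carbohydrases were tested and 3 passed, each lower, among them SI, the sucrase-isomaltase gene (-5.05). These 3 had entered the test through Caco-2-line cells alone, so no other direction was possible. LCT and MGAM had no UMI in HT29-line cells, and the median of the list was -5.05 as fitted but -0.78 with both genes at the bound given by 3 counts per library. Of 6 genes of glucose synthesis and release, 3 were higher and 3 lower with a median of 0.15, from PCK1 (-4.19) and SLC37A4 (-2.43) to FBP1 (1.79). Of 5 genes of sugar sensing, 4 were higher and 1 lower with a median of 0.39: TXNIP (1.55) and ARRDC4 (2.05) were higher and MLXIPL, which encodes the glucose-responsive factor ChREBP, was lower (-2.24). Of 4 markers of non-epithelial cells tested, 3 were lower and 1 did not pass, and 2 of the 4 had no UMI in HT29-line cells and had entered through Caco-2-line cells alone.

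The second comparison asked how the genes differed with differentiation, since absorption is the task of mature enterocytes. Cells were clustered with the 6 genes and all list genes left out of the features used, and clusters were named from fixed markers. Enterocyte-like cells (ECLC, 2059 cells, with APOA4, FABP2 and CUBN high) were compared with the intestinal stem cell-like and transit-amplifying-like cells together (ISCLC and TALC). All 6 genes were higher in ECLC, against 31.7% of the 12791 genes tested that were higher and 31.4% that were lower (63.1% in all). SLC2A2 and SLC5A1 had entered the test through their ECLC counts alone, so for these 2 genes no other direction was possible. Classes and values came from the same cells, and genes that vary with the clustered genes are tied to the classes. The p-values therefore describe only the size of the differences against a spread that edgeR estimated partly from all genes. That spread can be smaller than the spread of a single gene between the 3 libraries. With DESeq2 the SE was 0.27 for SLC2A5 and 0.22 for SLC2A3, against 0.10 and 0.08 in edgeR.

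SLC2A5 separated the classes most. It was at 195 CPM in ECLC of control 1, 315 CPM in control 2 and 393 CPM in the LPS library, and at 7.75, 6.14 and 9.95 CPM in ISCLC and TALC. The ratio of these levels was 25.1, 51.3 and 39.5 in the same order, and the fitted log2 fold change was 5.43 (SE 0.10, adjusted p = 6.2e-75). A UMI was found in 51.3%, 63.3% and 59.6% of ECLC and in 4.23%, 3.01% and 3.58% of ISCLC and TALC.

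KHK, which acts on the fructose that GLUT5 carries, was at 34.1, 24.0 and 29.5 CPM in ECLC and at 12.5, 13.0 and 8.46 CPM in ISCLC and TALC. Its groups did not overlap, and the log2 fold change was 1.63 (SE 0.13, adjusted p = 8.8e-21). SLC2A2 was at 6.66, 8.10 and 10.96 CPM in ECLC (32, 24 and 29 UMIs) against 0.870, 0.302 and 0.572 CPM (11, 3 and 5 UMIs), with a log2 fold change of 3.98 (SE 0.33, adjusted p = 4.7e-20). SLC5A1 was at 3.54, 4.73 and 3.40 CPM in ECLC (17, 14 and 9 UMIs) against 0.237, 0.403 and 0.457 CPM (3, 4 and 4 UMIs), with a log2 fold change of 3.66 (SE 0.45, adjusted p = 6.1e-12). These 2 genes rested on few molecules and had entered the test through ECLC alone. DESeq2 gave an SE of 0.52 for SLC2A2 and 0.69 for SLC5A1. Their sizes also moved with the settings. SLC2A2 gave 4.61 without control 1 and 3.26 with finer clusters. SLC5A1 gave 2.91 with finer clusters and 4.32 with log normalization in the clustering. KHK gave 1.01 with finer clusters.

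SLC2A1 and SLC2A3 differed less. SLC2A1 was at 164, 217 and 271 CPM in ECLC against 170, 172 and 199 CPM in ISCLC and TALC (log2 fold change 0.49, SE 0.07, adjusted p = 2.1e-09). SLC2A3 was at 407, 699 and 812 CPM against 418, 402 and 534 CPM (log2 fold change 0.70, SE 0.08, adjusted p = 1.7e-13). In control 1 the CPM of both genes was not higher in ECLC, with ratios of 0.966 and 0.974. The test scaled each sum by TMM factors, which were 0.863 to 0.976 for ECLC and 1.08 to 1.11 for ISCLC and TALC. Without that scaling, chosen as an alternative after seeing the data, the differences were 0.24 for SLC2A1 and 0.45 for SLC2A3 and both still passed. The median of all genes tested then moved from -0.01 to -0.27, and the share of passing genes that were higher in ECLC fell from 50.2% to 32.6%. Relative to these medians the 2 genes lay on the higher side in both fits. Over all alternatives the differences ran from 0.24 to 0.68 for SLC2A1 and from 0.45 to 1.15 for SLC2A3.

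Most lists held more genes higher than lower in ECLC. Over all genes tested, 31.7% were higher and 31.4% lower. Of 5 genes of fructose breakdown and polyol steps tested, 2 were higher, among them TKFC (2.42), AKR1B1 (-3.12) and the sorbitol dehydrogenase SORD (-0.66) were lower, and GLYCTK did not pass, with a median of 0.30 against -0.01 over all genes. Of these genes, 2 had entered through 1 side alone, AKR1B1 among them. All 4 brush border carbohydrases tested were higher, with a median of 2.55, led by the lactase gene LCT (3.69), MGAM (2.72) and MGAM2 (2.38), but these 3 had entered the test through ECLC alone and could not have been lower. Of 12 other sugar transporters, 9 were higher and 2 lower with a median of 1.45, among them SLC5A11 (3.86), SLC2A14 (1.95) and SLC5A3 (1.64), both SLC5 genes encoding inositol carriers. SLC5A11 had entered through ECLC alone.

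Of 7 genes of glucose synthesis and release, 5 were higher and 2 lower with a median of 1.56, led by G6PC (4.26) and PCK1 (3.06), which act at the end and the start of that pathway, and by FBP1 (1.73). G6PC had entered through ECLC alone. Of 20 glycolysis genes, 16 were higher and 1 lower with a median of 0.88, led by HK2 (1.98), ALDOC (1.72) and PFKP (1.70). Of 10 hypoxia genes, 9 were higher and none lower, with a median of 1.36, led by NDRG1 (2.73), ANKRD37 (2.17) and EGLN3 (1.87). Of 5 sugar sensing genes, 4 were higher with a median of 0.81 (MLXIPL 1.23, TXNIP 0.98, MLX 0.81). Among 4 non-epithelial markers tested, 2 were higher, including CD68 (2.13), which encodes a lysosomal protein and is not restricted to macrophages. The median of these markers was 0.61. The shares over all genes are again 31.7% higher and 31.4% lower. All these list counts came from the fit with TMM scaling.

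Without use of the cluster names, the Caco-2-line cells of each library were ordered by the share of their UMIs on the 10 ECLC markers and cut into quintiles. The same 10 markers had served to name the ECLC, so this order is not independent of the comparison of classes. SLC2A5 went from 2.68 CPM in the lowest quintile of control 1 through 8.70, 16.7 and 69.0 CPM to 186 CPM in the highest. In control 2 it went from 4.07 to 253 CPM and in the LPS library from 3.69 to 334 CPM. KHK was at 9.20 CPM in the lowest and 32.8 CPM in the highest quintile of control 1, at 11.7 and 20.7 CPM in control 2, and at 6.46 and 26.2 CPM in the LPS library. SLC2A1 did not follow this order: its level in the highest quintile was below that in the lowest in each library (158 against 253, 206 against 262 and 245 against 254 CPM). The same held for SLC2A3 (382 against 643, 629 against 675 and 687 against 743 CPM).

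**Figure D2:**
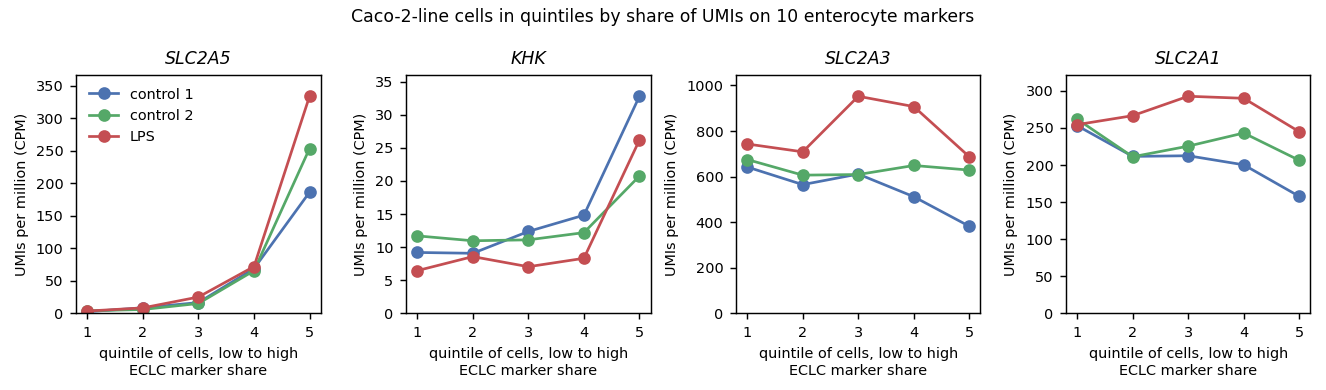
Levels in CPM of SLC2A5, KHK, SLC2A3 and SLC2A1 in Caco-2-line cells by quintile of the cells' share of UMIs on the 10 ECLC markers, from lowest to highest, with 1 line per library, axes from 0 and no error bars. SLC2A5 reaches 186, 253 and 334 CPM in the highest quintile, whereas SLC2A1 and SLC2A3 end below their lowest quintile in each library.

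Within ECLC it was asked whether the cells with a UMI of SLC2A5 were also those with a UMI of KHK. Each ECLC deep enough was thinned to 1 fixed number of UMIs, the minimum set for control 1, because deeper cells show more genes. KHK was then seen in 8.47% of ECLC with SLC2A5 and 6.79% of ECLC without it in control 1. The shares were 4.69% and 4.88% in control 2 and 9.16% and 4.03% in the LPS library. The share was thus higher in cells with SLC2A5 in control 1 and LPS and slightly lower in control 2. Cells of 1 library are not replicates, and no test was run. Thinning left out 0, 35 and 73 shallower ECLC in the same order, so the unthinned shares cover more cells. Before thinning the shares were 18.4% and 14.9%, 11.2% and 9.25%, and 12.8% and 6.92%.

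Across 13 groups of cells, 5 of them clusters left without a name, the leading group was shared by some genes and differed between others. SLC2A1 was highest in undifferentiated HT29 cells (U-HT29), at 1068, 1389 and 1094 CPM in control 1, control 2 and LPS. Next came the goblet cell-like cells (GCLC; 701, 782 and 698 CPM), a class in which 44% of the cells were HT29-line and SST and GCG were among the leading genes. Then came an unnamed Caco-2-line cluster led by ITGA5 (468, 525 and 585 CPM). The counting intervals of these 3 groups did not overlap in control 1 and control 2. In the LPS library those of GCLC and the ITGA5 cluster did. Without the minimum mean marker fold, set after seeing the clusters, the ITGA5 cluster would be named ECLC. With finer clusters, a cluster led by ITGA5 was named ECLC. Cells of the ITGA5 cluster were shallower than all kept cells, with a median of 4518, 2794 and 2743 UMIs. Their median mitochondrial share was 3.92%, 5.54% and 5.55%, against 3.62%, 4.05% and 4.41% over all kept cells.

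SLC2A3 was highest in 2 groups whose order changed between libraries: the fetal genes expressing cells (FGEC; 2031, 2385 and 2350 CPM in 22, 44 and 10 cells) and the ITGA5 cluster (1844, 2399 and 2721 CPM). In each library their intervals overlapped. SLC2A3 stood among the 10 leading genes of the ITGA5 cluster although it was not used in the clustering. The next group was at most at 1166 CPM in any library.

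SLC2A5 was highest in ECLC, followed by the ITGA5 cluster (71.5, 81.3 and 89.8 CPM) and an unnamed cluster led by PAGE4 (63.1, 63.1 and 80.2 CPM). The latter 2 had overlapping intervals in each library. Cells of the PAGE4 cluster had a median of 12065, 5158 and 8689.5 UMIs, against 5459, 4103 and 3573.5 over all kept cells. Its leading genes LY6D and RARRES2 were also among those of a U-HT29 cluster, and whether it held remaining doublets was not tested. KHK was also highest in ECLC, but its interval overlapped that of the group ranked next in each library: the PAGE4 cluster in control 1 (21.0 CPM), the ISCLC cluster with ALB and AFP high in control 2 (20.8 CPM) and a cluster led by STC1 in LPS (19.3 CPM from 4 UMIs). SLC2A2 was highest in ECLC in each library and had no UMI in 5, 9 and 6 of the 13 groups. Its ECLC interval overlapped that of the ITGA5 cluster in control 1 and LPS, where that cluster had 3 and 4 UMIs. U-HT29 came next for SLC2A2 in the LPS library, with 5 UMIs (1.45 CPM). SLC5A1 was highest in U-HT29 (9.57, 12.9 and 13.3 CPM), and the GCLC that followed rested on 2, 4 and 2 UMIs.

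**Figure D3:**
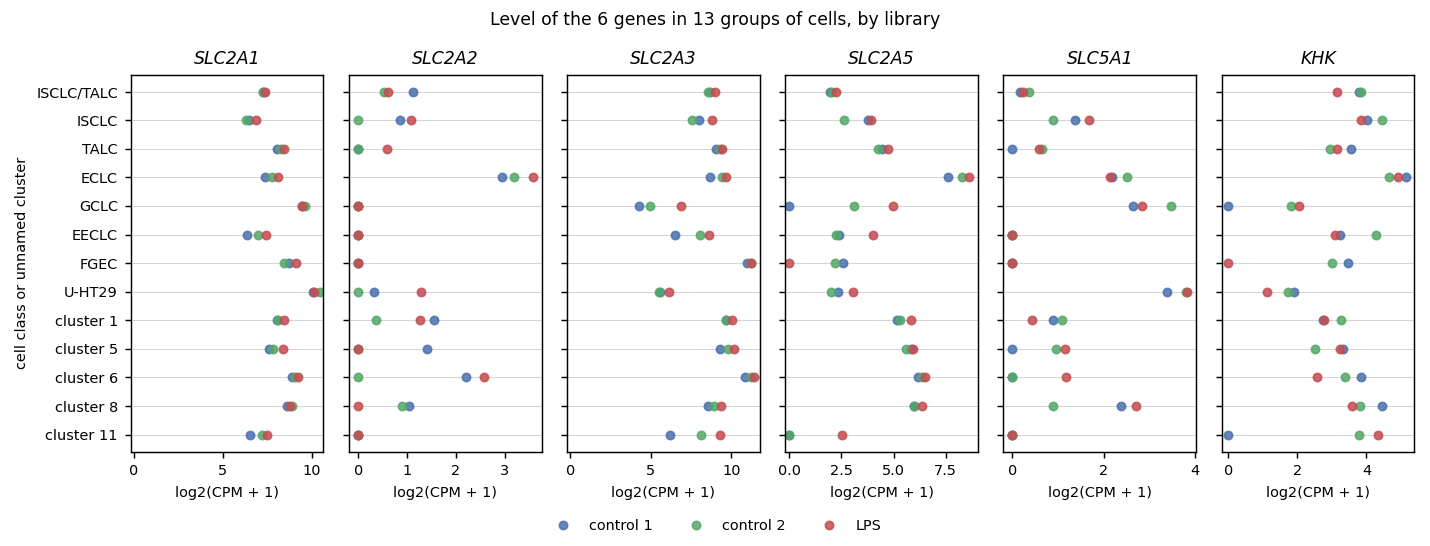
Level of each gene in 13 groups of cells, as log2(CPM + 1), with 1 panel per gene on its own scale and 1 point per library. U-HT29 leads for SLC2A1 and SLC5A1, ECLC for SLC2A5, SLC2A2 and KHK, and FGEC with cluster 6 (led by ITGA5) for SLC2A3.

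Among HT29 cells, SLC2A1 was unevenly spread. The U-HT29 fell into 4 clusters. The one led by AQP1 and PYGB had 2541, 2214 and 2054 CPM of SLC2A1. The cluster led by LCN15 and CSPG4 had 886, 1235 and 985 CPM, the one led by KLK10 and OASL 930, 1233 and 921 CPM, and the one led by CST6 and RARRES2 1037, 1477 and 1099 CPM. The AQP1 cluster was above the other 3 in each library. The CST6 cluster was above the LCN15 and KLK10 clusters within each library, although the ranges of the other 3 over the libraries overlapped. The summed level of the 10 hypoxia genes was also highest in the AQP1 cluster (7211, 8770 and 7850 CPM), against 2632 to 5410 CPM in the other 3. NDRG1 alone gave 2528, 3956 and 3538 CPM of that sum. CA9 was highest there in control 1 only (287 CPM). The summed level of the 20 genes of glycolysis and lactate export was instead highest in the CST6 cluster (19171, 18654 and 14971 CPM). In the AQP1 cluster it was at 14792, 13949 and 12913 CPM. The part of either list in the SLC2A1 levels was not tested. SLC5A1 was at 15.9, 21.5 and 19.3 CPM in the AQP1 cluster (22 UMIs) and at 15.9, 12.5 and 12.9 CPM in the LCN15 cluster (52 UMIs). It was at 7.43, 16.3 and 14.5 CPM in the KLK10 cluster (54 UMIs) and at 2.17, 0 and 8.13 CPM in the CST6 cluster (7 UMIs).

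**Figure D4:**
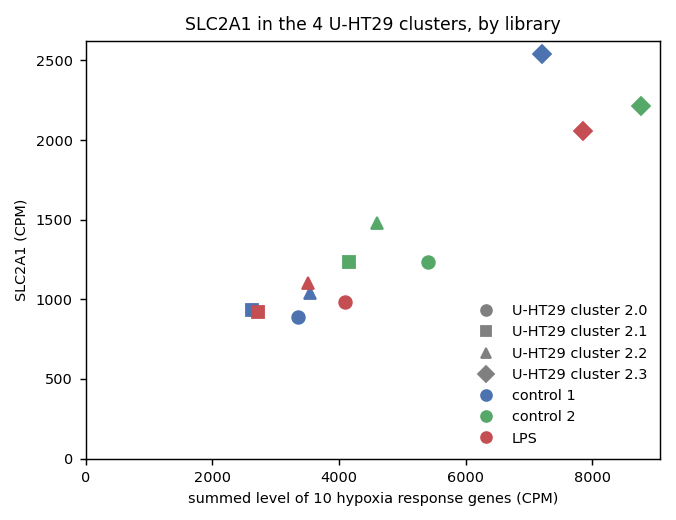
Level of SLC2A1 (vertical) against the summed level of the 10 hypoxia genes (horizontal) in the 4 clusters of undifferentiated HT29 cells, in CPM with axes from 0, where shapes mark clusters and colours libraries. The AQP1 and PYGB cluster (2.3) is the highest for both, with SLC2A1 at 2054 to 2541 CPM.

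The genes with the most similar profile over the 37 sums of group and library (Pearson r of log2(CPM + 1), among 12994 genes) were listed for each gene as a description, since all sums share 3 libraries. For SLC2A5 they were APOA4, SLC11A2 and LGALS14 (r = 0.89 each). For SLC2A2 they included UGT2B17 (0.82) and AC133644.2 (0.81), and for KHK they were APOE (0.85), GSTA2 (0.83) and SLC37A4 (0.83). SLC2A1 was closest to SEMA4B (0.92) and to the glycolytic genes PGK1 and PKM (0.90 each). SLC2A3 was closest to TIMP3 (0.93), PLIN2 (0.90) and STC2 (0.89), and SLC5A1 to CIB1 (0.86), CCDC9B and PRR34-AS1 (0.84 each).

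The last comparison set the LPS Transwell against the 2 controls. None of the 6 genes passed the adjusted threshold in edgeR's test, in all kept cells, in Caco-2-line cells or in HT29-line cells. Few genes passed at all: 0.105% of 16135 genes in all kept cells, 0.116% of 15582 in Caco-2-line cells and 0.205% of 11698 in HT29-line cells. At an unadjusted p under 0.05 the counts were 751, 1078 and 389 genes. The lone LPS library was assumed to vary as the controls do, with 1 residual degree of freedom.

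SLC2A5 showed the smallest p in Caco-2-line cells. Its 86.1 CPM with LPS lay above the 53.7 and 65.5 CPM of the controls, with a log2 fold change of 0.45 (SE 0.14, 95% interval 0.18 to 0.73, unadjusted p = 0.0033, adjusted p = 0.61). SLC2A3 was at 802 CPM with LPS against 547 and 633 CPM in the controls (log2 fold change 0.36, SE 0.16, unadjusted p = 0.031, adjusted p = 0.71). KHK was at 11.2 CPM against 15.3 and 13.2 CPM (log2 fold change -0.44, SE 0.19, unadjusted p = 0.029, adjusted p = 0.71). For these 3 genes the LPS value lay outside the range of the controls, but the controls differed in the same direction as LPS did from them, and the median depth of the cells fell in that same order (5474, 4214 and 3577 UMIs in Caco-2-line cells). The part of depth in these values was not tested.

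SLC2A1 in Caco-2-line cells was at 270 CPM with LPS against 208 and 229 CPM, with a log2 fold change of 0.23 (95% interval -0.06 to 0.51). SLC2A2 and SLC5A1 gave 0.35 and -0.15, with intervals from -0.41 to 1.11 and from -1.13 to 0.84. In HT29-line cells only SLC2A1, SLC2A3 and SLC5A1 had enough counts for the test. SLC2A3 was at 41.9 CPM with LPS against 25.6 and 21.9 CPM (log2 fold change 0.77, SE 0.27) and did not pass the adjusted threshold. The shares of APOC3 and CUBN in HT29-line cells were highest with LPS too, but those of APOA4, AFP and FABP2 were not. The part of free RNA in the SLC2A3 difference was not tested. SLC2A1 gave -0.20 there and SLC5A1 0.18.

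**Figure D5:**
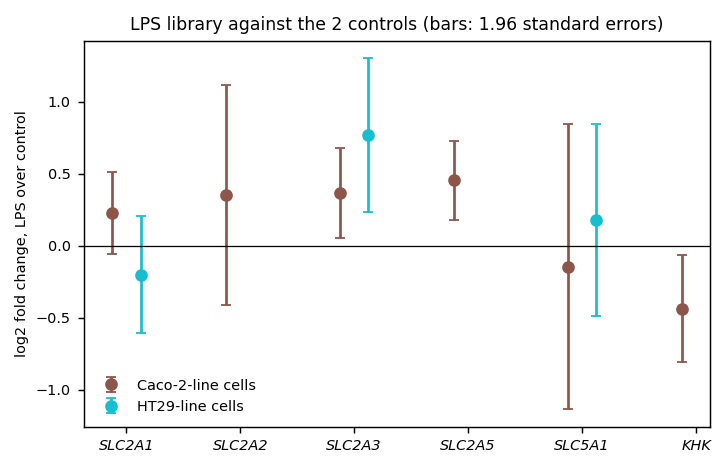
Log2 fold change of LPS against control for each gene in Caco-2-line and HT29-line cells, with bars for the 95% interval from the standard error. The largest Caco-2-line values are 0.45 for SLC2A5 and -0.44 for KHK, and no gene passed the adjusted threshold.

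Counted over the 13 groups of cells, the LPS level lay above both controls in 12 groups for SLC2A3 and in 12 for SLC2A5, a number reached by 0.627% of the 8138 genes of at least 10 CPM. Some of these groups held few SLC2A5 UMIs over the 3 libraries: 1 in the STC1 cluster, 4 in enteroendocrine cell-like cells and 13 in GCLC. For SLC2A1 it was 10 groups (4.68% of genes), for SLC2A2 and SLC5A1 5 groups each (57.1% of genes), and the median gene had 5. SLC2A2 and SLC5A1 were themselves below 10 CPM (means of 1.82 and 2.91 CPM in all kept cells), unlike the genes they were set against. KHK lay below both controls in 7 groups (17.3% of genes). The groups share their libraries, so they are not replicates, and these counts describe a single LPS Transwell. Whether LPS acted differently on the lines was tested with an interaction term, for which 0.164% of 14005 genes passed and none of the 6 did. The difference of the LPS effects, HT29-line minus Caco-2-line, was -0.43 for SLC2A1 (SE 0.15, unadjusted p = 0.0041, adjusted p = 0.68) and 0.40 for SLC2A3 (unadjusted p = 0.068). None of the genes in the 8 lists passed with LPS in all kept cells or in the cells of either line.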

How the data were processed

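Droplet 3′ single-cell libraries of 3 Transwells were used. The authors deposited whole-number UMI counts per gene and barcode, made with Cell Ranger on GRCh38 (version 3.1.0 per the file headers), with no normalization. No other per-sample columns were left unused. Cells needed at least 2250 UMIs and 770 genes in control 1 or 1500 UMIs and 700 genes in control 2 and LPS, and at most 20% mitochondrial UMIs. The 6% of cells with the highest Scrublet scores (scanpy 1.11.5) were removed, because its automatic threshold marked almost none. Lines were separated at the lowest point of the line score histogram, leaving out cells within 1 of it on the log2 scale. Clusters came from SCTransform (sctransform 0.4.2, Seurat 5.3.0), anchor integration on 3000 features, 50 components and Leiden clustering at 0.5 (leidenalg 0.10.2). A name needed 3 raised markers and a mean marker log2 fold change of 0.5, a minimum set after seeing the clusters. Cluster 0 met 2 names and was kept as ISCLC with TALC. Summed counts were tested with edgeR 4.0.16 (TMM, filterByExpr, quasi-likelihood, two-sided, Benjamini-Hochberg 0.05) in R 4.3.3. Scripts were tested on simulated data. The members and gene lists were chosen with earlier results of these data known. Library replicates are separate Transwells, so p-values refer to these 3 cultures, with a spread that edgeR estimated partly from all genes. Line and class fits used library as a block, since the same Transwell holds both. Named genes were the 6 genes and, per list, up to 3 passing genes with the largest absolute fold change, plus the 3 most similar profiles. Other genes in the text (SORD and GLYCTK, for example) were named after their values were seen. 1 gene is not reported here. Intervals and floors cover counting error only. Alternatives included DESeq2 1.42.0.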

Additional observations from a re-analysis of the deposited data

How the results depend on the processing

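Each comparison was repeated with other size factors, without the count filter, with DESeq2, without doublet removal, with control 1's minimums in all libraries, with other line and cluster settings and without each library. All 6 genes passed in the same direction for line and for ECLC under each alternative that was run, and none passed for LPS. In the main fits 73.2% of all genes tested passed for line and 63.1% for ECLC. SLC2A2, SLC2A5 and KHK (line) and SLC2A2 and SLC5A1 (ECLC) had entered those fits through 1 side alone. For them the direction was given in advance. Leaving out each library in turn gave 9457 to 9537 genes passing for line and 7015 to 7349 for ECLC, and 6 of 6 genes in each. With no replicate block, 9787 genes passed for line and 7014 for ECLC, with 6 of 6 genes in both. The counts of genes passing for LPS were unstable. In all kept cells 17 genes passed, but 46 with no filter, 6 with DESeq2 and 11 with no doublets removed. In Caco-2-line cells 18 passed (6 higher, 12 lower), but 45 with DESeq2's size factors in edgeR, 51 with no filter, 5 with DESeq2, 50 with no doublets removed, 7 with control 1's minimums and 48 with no cells left out at the line boundary. In HT29-line cells 24 passed, but 3 with DESeq2, 15 with no doublets removed and 14 with control 1's minimums. The interaction had 23, but 9 with DESeq2's size factors, 11 with no scaling beyond total UMIs (an alternative added after seeing the data) and 1 with DESeq2. In each case the cause was not tested. No paired analysis was possible for LPS because the LPS library shares a number with 1 control only. Without each library the LPS values have no test, and the difference in all kept cells ranged from -0.09 to 0.23 for SLC2A1, 0.11 to 0.90 for SLC2A2, 0.30 to 0.39 for SLC2A3, 0.36 to 0.52 for SLC2A5, -0.06 to 0.39 for SLC5A1 and -0.63 to -0.31 for KHK. With cells thinned to 1 fixed number of UMIs the share with a UMI was 39.5% for SLC2A1, 0.407% for SLC2A2, 43.6% for SLC2A3, 9.02% for SLC2A5, 0.694% for SLC5A1 and 2.41% for KHK. Thinning left out 1209 shallower cells of 14472 and lowered the share of KHK by the largest factor, while SLC2A2 and SLC5A1 rested on the fewest UMIs.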
